A study of Mus musculus with 18 samples.

Results

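The comparison set 6 libraries of splenic CD8 T cells from mice on high fat diet (HFD) against the 12 libraries from mice that were eating normal diet when the cells were taken, out of 18 libraries in all. The question was which transcripts went with the diet at sampling, whatever the mice had eaten before. HFD mice had 12 weeks of high fat diet. The other 12 libraries came from 2 groups of 6. Switched (SW) mice had 6 weeks of high fat diet and then 6 weeks of normal diet, and normal diet (ND) mice had normal diet for 12 weeks. All mice were wild type (WT), and the labels give neither age, sex nor strain, nor whether each library is a separate mouse. Each p-value is therefore one of sample spread, and part of that spread may be technical. What the high fat diet was made of is not stated in the labels. Poly-A RNA was sequenced from freshly isolated cells. Total counts ran from 11947339 to 16398340 per library. The library HFD 4 had a count for 17570 genes, below the 18963 to 20155 genes of the other 17 libraries. Cd8a, a chain of the CD8 co-receptor, had a lowest, median and highest level of 1369, 1497 and 1584 CPM (counts scaled by library size) in HFD, 1448, 1510.4 and 1635 CPM in SW and 1403, 1488 and 1598 CPM in ND. The labelled cell type thus had its co-receptor transcript at a high level on all 3 diets, and 0 of the 12 tested genes of a CD8 T cell identity list were called by edgeR, DESeq2 or limma-voom in the comparison below, with 3 at an unadjusted p under 0.05.

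CD8 T cells are the lymphocytes that kill infected or transformed cells after their antigen receptor has met a peptide on an MHC class I molecule. A resting spleen holds mostly naive cells, with a minority of effector and memory cells that have met antigen or cytokines and carry more adhesion molecules, cytokine receptors and cytotoxic proteins. The makeup of this mixture and the RNA of each cell both set the level of a transcript in a sorted population, and bulk libraries cannot tell apart a shift in the share of such cells from a change within cells. High fat feeding of mice is known to raise circulating lipids and to alter the metabolism of immune cells.

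For each gene the level in HFD was contrasted with the mean of SW and ND on the log2 scale in 1 fit of all libraries, which also held a term for the set of library numbers (replicates 1 and 2 against 3 to 6). The adjusted p-values given below come from the edgeR quasi-likelihood test with Benjamini-Hochberg adjustment over the 13690 genes tested, and a gene was called at an adjusted p under 0.05. Of these genes 509 were called, which is 3.72% of those tested. They divided into 285 that were higher in HFD (2.08% of tested genes) and 224 that were lower (1.64%). At an unadjusted p under 0.05 there were 2646 genes. A fit of replicates 3 to 6 called 187 genes, and one of replicates 1 and 2, with 2 libraries a diet, called 5. A fit of all libraries without the term for the number set called 184. ND and SW were counted as alike for a called gene when the whole 95% interval of SW minus ND lay closer to 0 than the size of the HFD difference. This held for 339 of the 509 genes (2.48% of tested genes), with 195 higher in HFD (1.42%) and 144 lower (1.05%). The interval covered 0 for 330 of the 339 and lay clear of 0 for 9, so alike does not mean equal. The HFD differences were small. Their median size was 0.25 on the log2 scale among these 339 genes, and 44 of them differed by at least 1.5-fold, 31 higher and 13 lower. The median difference over all tested genes was 0.0057 for HFD and 0.0014 for SW minus ND. Just inside the threshold stood Lyz2 (log2 difference 0.65) and just outside it Htt (0.12).

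**Figure D1:**
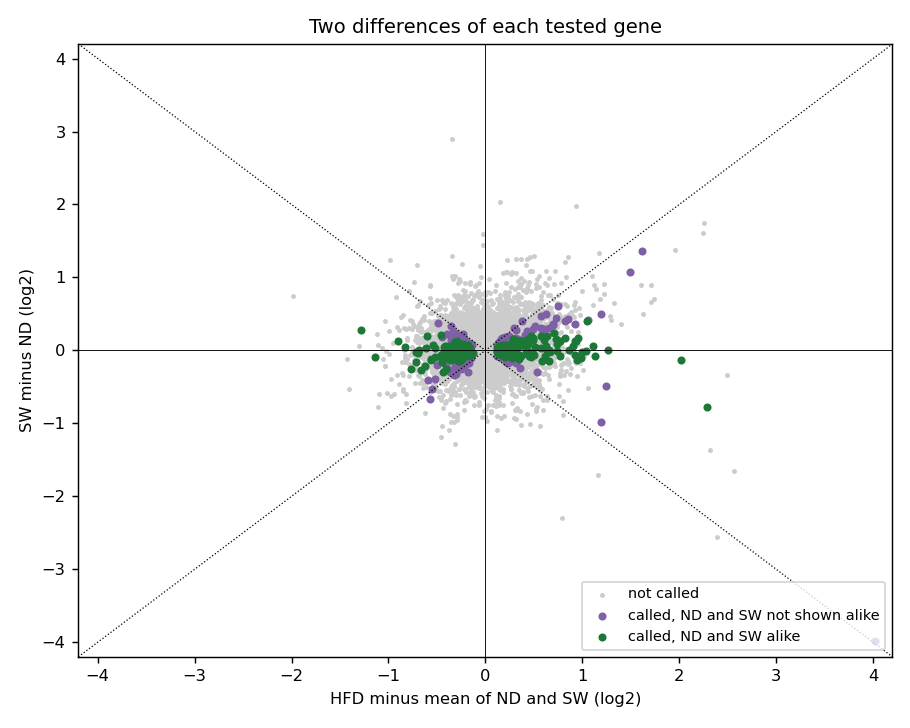
Each point is 1 of the 13690 tested genes. The horizontal axis is HFD minus the mean of ND and SW and the vertical axis SW minus ND, both log2 differences of the fit, with dotted lines where the 2 are equal in size. The 339 green genes, called with ND and SW alike, lie near the horizontal zero line, and the 170 purple genes, called without that, lie nearer to or beyond the dotted lines.

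For the other 170 called genes the interval of SW minus ND reached the size of the HFD difference. It lay clear of 0 for 77 of them and covered 0 for 93, so for those 93 the data do not settle where SW stands. Taken pair by pair, 535 genes were called between HFD and ND (3.91%), 116 between HFD and SW (0.847%) and 22 between SW and ND (0.161%). Of the 509 called genes 351 were also called between HFD and ND, 102 between HFD and SW and 119 in neither of these pairs. SW lay on the HFD side of ND for 69.4% of the called genes, against 53.8% of all tested genes. The pairs share libraries with each other and with the pooled contrast, and the counts are given side by side only. With library size in place of scaling factors, 186 genes were called higher and 330 lower in HFD, against the 285 and 224 above. That scaling moved the median of all genes by less than 0.1 on the log2 scale.

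The list with the most called members higher in HFD was that of effector and memory CD8 T cells. Of 47 tested members of this list 15 were called higher and 0 lower, and for 12 of the 15 ND and SW were alike. The median HFD difference of the list was 0.41, and the median of SW minus ND was 0.032. At an unadjusted p under 0.05 there were 34 of the 47, each higher in HFD, against 2646 of all 13690 tested genes. This list, like the others, was chosen with earlier results of these data known, so its counts are a description. Cd44, the hyaluronan receptor that marks T cells that have met antigen or cytokine, lies on chromosome 2 (GRCm38 chr2:102811141-102901665, minus strand). Its lowest, median and highest levels were 71.4, 77.5 and 87.9 CPM in HFD, 56.9, 63.9 and 72.6 CPM in SW and 56.2, 61.5 and 66.8 CPM in ND. A single SW library lay above the lowest HFD library, and every ND library lay below it. The HFD difference of Cd44 was 0.32 ± 0.054 (SE, n = 6 and 12; adjusted p = 0.000817), and SW minus ND was 0.066 with an interval of -0.062 to 0.19.

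Several transcription factors of effector differentiation were among the called members. Prdm1, which encodes Blimp-1, had 3.91, 6.88 and 8.77 CPM in HFD, 2.58, 4.54 and 4.84 CPM in SW and 3.05, 3.55 and 4.01 CPM in ND, again as lowest, median and highest. Only HFD 4 fell within the range of the SW and ND libraries, and the difference was 0.82 ± 0.16 (adjusted p = 0.00313). Bhlhe40, a basic helix-loop-helix repressor that T cells induce on activation and that also acts in the circadian clock, had 6.01, 6.42 and 13.0 CPM in HFD, 2.89, 3.55 and 4.99 CPM in SW and 2.07, 3.54 and 5.50 CPM in ND. All 6 HFD libraries lay above all 12 others, with the highest value in HFD 2, and the difference was 0.99 ± 0.18 (adjusted p = 0.00258). Zeb2, a zinc finger repressor that promotes terminal effector differentiation, rose by a log2 difference of 0.93 ± 0.21 (adjusted p = 0.00903), with a fitted value of 0.76 and an adjusted p of 0.0521 without HFD 2. Id2, an inhibitor of E proteins, rose by 0.29 ± 0.056 (adjusted p = 0.00438). For Id2 the interval of SW minus ND, 0.02 to 0.29, lay above 0 and yet within the size of the HFD difference.

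Cytotoxic and surface molecules of the same list gave the other calls. Fasl, the death ligand, had 6.59, 8.94 and 19.2 CPM in HFD, 3.96, 5.67 and 8.53 CPM in SW and 3.69, 5.72 and 7.47 CPM in ND, so the groups overlapped. In fits that each left out 1 library, Fasl was called in 12 of 18. S100a6, a calcium-binding protein of memory cells, rose by 0.58 ± 0.093 (adjusted p = 0.0013) and the chemokine Ccl5 by 0.49 ± 0.10 (adjusted p = 0.0123). The inhibitory NK receptor Klrc1 rose by 0.57 ± 0.14, the interleukin 2 and 15 receptor chain Il2rb by 0.29 ± 0.075 and the granule membrane protein Nkg7 by 0.14 ± 0.04. The 3 members called without ND and SW being alike were Itga1, Runx2 and Cx3cr1. Gzmb had 6.66, 11.9 and 32.3 CPM in HFD, 2.78, 6.46 and 10.03 CPM in SW and 2.87, 4.66 and 7.13 CPM in ND, with a difference of 1.30 ± 0.35. It was not called by edgeR (adjusted p = 0.0535) or limma-voom (adjusted p = 0.0528), was called by DESeq2 (adjusted p = 0.00982), and was called by edgeR in 3 of the 18 fits with a library left out. The highest Gzmb level was in HFD 1. Tbx21 and Eomes, the T-box factors of effector and memory cells, differed by -0.11 ± 0.12 and 0.029 ± 0.069 and were not called. The list's count of called members was 9 without any 1 of HFD 2, HFD 4, HFD 6, SW 1 or SW 4, against 15 with all libraries.

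**Figure D2:**
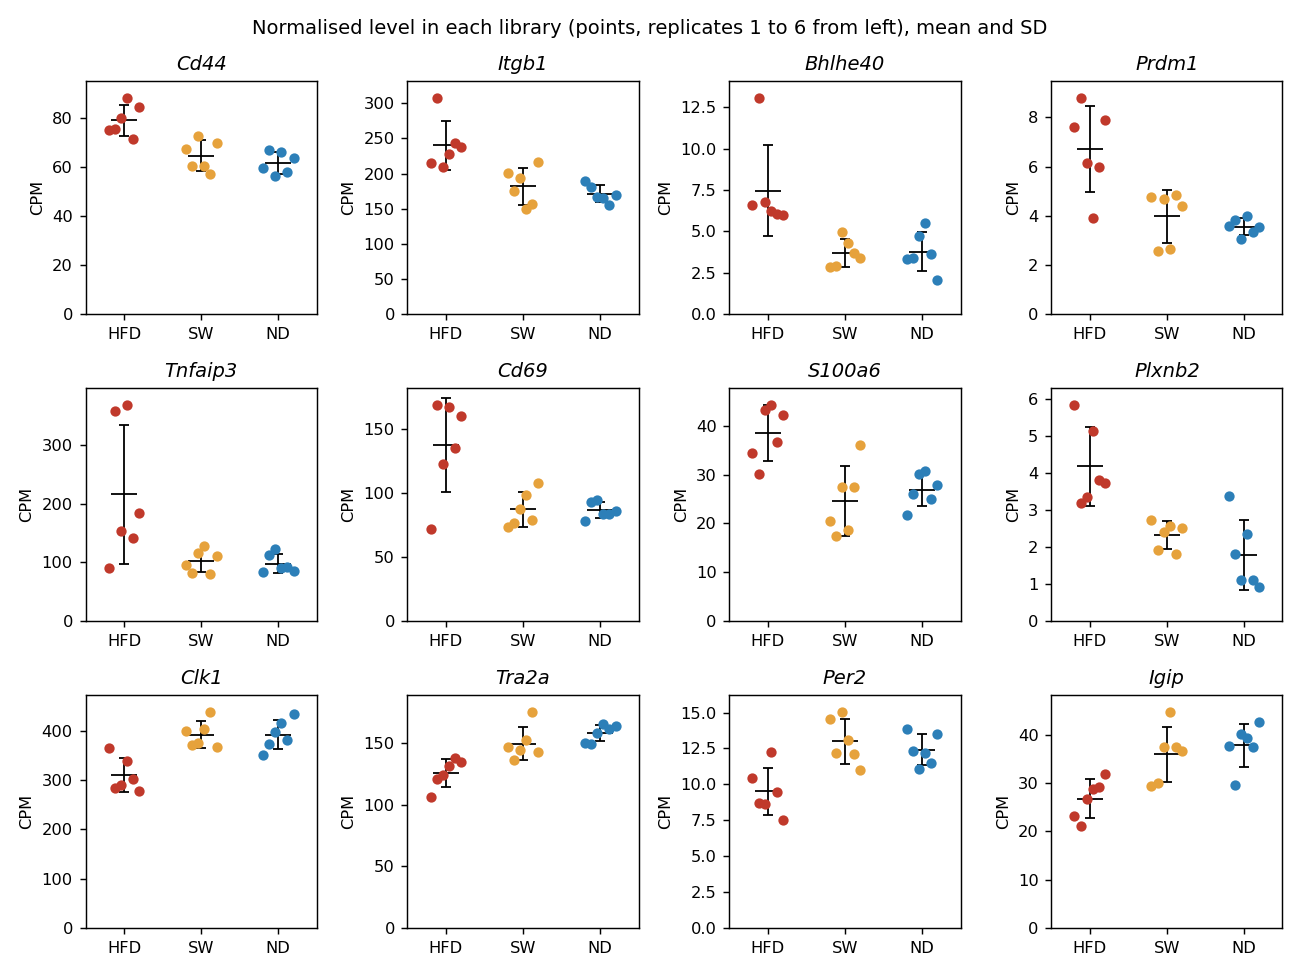
Normalised level (CPM) of 12 genes in each library of HFD, SW and ND. Points are libraries, with replicates 1 to 6 from left to right, and bars are the mean and SD of 6 libraries. In Bhlhe40 the HFD libraries stand clear of all others, while HFD 1 lies at the level of SW and ND in Tnfaip3 and Cd69.

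Adhesion molecules were called in a like direction. Of 24 tested integrins and adhesion genes 9 were called higher in HFD and 0 lower, 8 of them with ND and SW alike, and the list's median difference was 0.14. Of the 9, Cd44, Itgb1 and Itga1 are also among the 15 called members of the effector and memory list. Itgb1, the β1 chain of the VLA integrins (chr8:128685654-128733200, plus strand), had 209, 233 and 307 CPM in HFD, 149, 184 and 217 CPM in SW and 156, 168 and 189.9 CPM in ND. A single SW library reached into the HFD range, and the difference was 0.44 ± 0.08 (adjusted p = 0.00698). Plxnb2, a semaphorin receptor, had 3.18, 3.78 and 5.84 CPM in HFD, 1.82, 2.46 and 2.73 CPM in SW and 0.915, 1.47 and 3.38 CPM in ND. Only the highest ND library lay within the HFD range, and the difference was 1.05 ± 0.21 (adjusted p = 0.00321). Sema4d, a semaphorin of T cells that binds plexins, rose by 0.17 ± 0.037. Itgae, the αE chain of the integrin that binds E-cadherin, rose by 0.23 ± 0.049 (adjusted p = 0.00703) and Itgb2, the β2 chain of LFA-1, by 0.16 ± 0.031 (adjusted p = 0.00433). Itgam and Itgax, the αM and αX chains that partner Itgb2, are also markers of myeloid and dendritic cells. Itgam stood at 0.522 to 1.54 CPM in HFD, 0.271 to 0.701 CPM in SW and 0.209 to 0.751 CPM in ND. It passed the filter on low counts in 15 of the 18 fits with a library left out and was called in 4. A gene near the filter can pass it through the group in which it is high, so this call is a description. Of 19 chemokine and homing receptors 2 were called higher, Selplg, the P-selectin ligand (0.15 ± 0.035), and Cx3cr1. Selplg was not called without HFD 2, and Cx3cr1 was called in 2 of the 18 fits with a library left out.

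**Figure D3:**
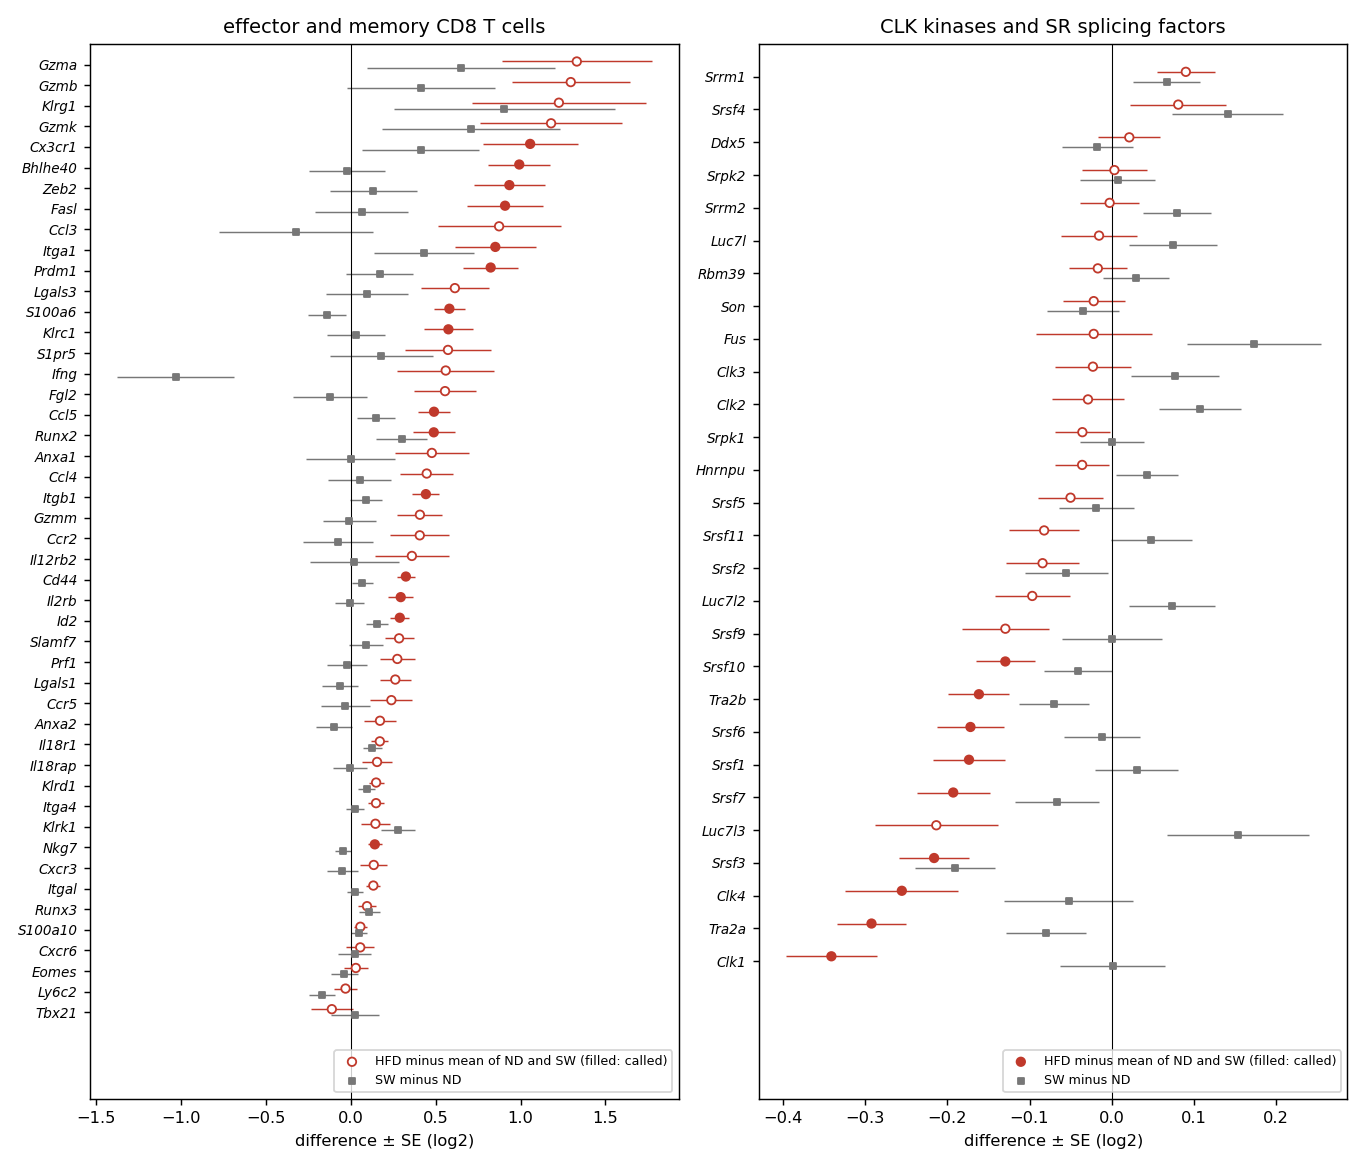
Fitted log2 differences of every tested member of the effector and memory list (left) and of the CLK and SR list (right). Red circles are HFD minus the mean of ND and SW, filled where called, and grey squares are SW minus ND, each with its SE. The called members lie to the right of 0 in the left panel, 15 of 47, and to the left of 0 in the right panel, 9 of 28.

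Immediate early and activation genes are those that T cells induce soon after stimulation. Of 45 such genes 2 were called higher, Cd69 and Zfp36l2, and 1 lower, Klf10. That is 6.67% of the list, against 3.72% of all tested genes. At an unadjusted p under 0.05 there were 9 higher and 5 lower, against 2646 of all 13690 tested genes. Cd69, an early activation antigen that holds cells in tissue, had 72.3, 147 and 169 CPM in HFD, 73.6, 83.4 and 108 CPM in SW and 78.3, 84.8 and 94.6 CPM in ND. HFD 1 had the lowest level of all 18 libraries and the other 5 HFD libraries lay above all SW and ND libraries. The difference was 0.66 ± 0.14 (adjusted p = 0.0167), and 0.52 with an adjusted p of 0.0533 without HFD 2. Tnfaip3, the ubiquitin-editing enzyme A20 that restrains NF-kB, had 91.2, 168 and 368 CPM in HFD, 81.0, 104 and 128 CPM in SW and 84.4, 91.2 and 123 CPM in ND. HFD 1 lay within the range of SW and ND, while HFD 2 had 359 CPM and HFD 4 had 368 CPM. The difference was 1.11 ± 0.26 (adjusted p = 0.0256), with an adjusted p of 0.0897 without HFD 2 and of 0.0784 without HFD 4. Zfp36l2, an RNA-binding protein that destabilises AU-rich transcripts, had 618 CPM in HFD 1, the lowest of all libraries, and a median of 1821 CPM in HFD, 1174 CPM in SW and 1006 CPM in ND. Its call held in 1 of the 18 fits that left out a library.

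Of 28 genes of the TNF superfamily and NF-kB list 2 were called higher, Tnfaip3 and Tnfrsf1b, and 2 lower, Nfkbid and Cd27. Tnfrsf1b, the second TNF receptor, rose by 0.20 ± 0.045 (adjusted p = 0.00961) with ND and SW alike. Tnf itself had 8.35, 11.1 and 15.1 CPM in HFD, 7.79, 9.86 and 12.2 CPM in SW and 13.0, 19.3 and 24.0 CPM in ND. The HFD and SW ranges overlapped and the ND median was the highest of the 3. The HFD difference of Tnf was -0.29 ± 0.14 and was not called (adjusted p = 0.282). Nfkbid, a nuclear IκB protein, had medians of 48.0 CPM in HFD, 52.4 CPM in SW and 66.3 CPM in ND. Rhob, a small GTPase gene, rose by 0.86 ± 0.17 (adjusted p = 0.0109), with 20.9, 32.5 and 44.3 CPM in HFD, 13.5, 18.9 and 24.5 CPM in SW and 13.5, 17.7 and 24.1 CPM in ND.

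Cytokine signalling genes were called in both directions, more of them higher. Of 40 tested genes of cytokine signalling 8 were called higher, 7 with ND and SW alike, and 2 lower, both with ND and SW alike, and the median difference of the list was 0.028. Il7r, the interleukin 7 receptor that keeps naive and memory T cells alive, had 634, 801 and 952 CPM in HFD, 565, 643 and 715 CPM in SW and 549, 569 and 649.6 CPM in ND. The ranges overlapped, and the difference was 0.36 ± 0.088 (adjusted p = 0.0329), a call that held in 8 of the 18 fits with a library left out. The interleukin 10 receptor chain Il10ra rose by 0.40 ± 0.09, the interleukin 4 receptor chain Il4ra by 0.14 ± 0.033 and the receptor kinase Jak1 by 0.14 ± 0.036. Jak2, Ifngr1, Il2rb and Il6ra made up the rest of the 8. Socs4, a suppressor of cytokine signalling, fell by 0.26 (SE 0.054, adjusted p = 0.00703), with 68.1, 76.9 and 87.3 CPM in HFD, 80.1, 88.8 and 108 CPM in SW and 91.2, 96.7 and 102 CPM in ND. Every ND library lay above the HFD range, which overlapped that of SW. The count of called cytokine genes depended on single libraries, with 2 without HFD 2, 3 without HFD 6 and 4 without HFD 4, HFD 5 or ND 1, against 10 with all libraries. It was 5 without ND 3 and 6 without ND 4, ND 5, SW 2 or SW 5.

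No transcript of the naive and central T cell list was called lower. Of 26 tested members 4 were called higher in HFD, Tgfbr2, Il7r, Ets1 and Il6ra, and 0 lower, with a list median of 0.069. Of those 4, ND and SW were alike for 1, Il7r. Lef1, a factor of naive T cells, had medians of 502 CPM in HFD, 570.0 CPM in SW and 496 CPM in ND and was not called (-0.061 ± 0.039). Of 27 FOXO and glucocorticoid targets 5 were called higher, 2 with ND and SW alike. Tsc22d3, the glucocorticoid-induced leucine zipper, had 343, 785 and 857 CPM in HFD, 479, 555 and 593 CPM in SW and 281, 403 and 437 CPM in ND. SW lay between HFD and ND, and HFD 1 lay within the ND range. The count of that list was 0 without HFD 2 or HFD 6, 1 without HFD 4 and 8 without HFD 1, and 2 or 3 without each of 12 other libraries. Of 37 proliferation genes 1 was called, the spindle checkpoint kinase Bub1b, with a list median of 0.30 for HFD and -0.015 for SW minus ND. At an unadjusted p under 0.05 there were 15 proliferation genes higher in HFD and 1 lower.

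The list with the most called members lower in HFD was that of CLK kinases and SR splicing factors. SR proteins bind exonic sequences to promote splicing, CLK kinases phosphorylate their arginine and serine repeats, and many of these genes carry exons or introns whose splicing controls their own output. Of 28 tested members 9 were called lower and 0 higher, 8 with ND and SW alike. The list's median difference was -0.066, and the median of SW minus ND was 0.0043. The count stayed between 7 and 9 in the 18 fits without 1 library. Clk1 (chr1:58410189-58424066, minus strand) had 277, 296 and 364 CPM in HFD, 366, 387 and 438 CPM in SW and 351, 389.7 and 433 CPM in ND. All HFD libraries lay below all SW libraries and only HFD 1 lay above the lowest ND library. Clk1 fell by 0.34 (SE 0.055, adjusted p = 0.00184), and SW minus ND was 0.0013 with an interval of -0.13 to 0.13. Tra2a, a splicing activator of the SR family, had 106, 127 and 138 CPM in HFD, 136, 145 and 175 CPM in SW and 149, 159 and 165 CPM in ND. Every ND library lay above the HFD range, and Tra2a fell by 0.29 (SE 0.042, adjusted p = 0.000453). Its paralogue Tra2b fell by 0.16 (SE 0.037, adjusted p = 0.0123).

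The called SR factors proper had smaller differences than Clk1 and Tra2a. Srsf7 fell by 0.19, Srsf1 by 0.17, Srsf6 by 0.17 and Srsf10 by 0.13, with SE of 0.036 to 0.044. Srsf3 was the called member for which ND and SW were not alike, with medians of 286 CPM in HFD, 323 CPM in SW and 354 CPM in ND. Clk4 fell by 0.26 (SE 0.069, adjusted p = 0.046), whereas Clk2 and Clk3 differed by -0.029 ± 0.043 and -0.023 ± 0.046 and were not called. The counts are per gene and do not tell apart productive transcripts from those with retained introns or poison exons.

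To show sequence of the members that fell, the promoters of the list were read from the RefSeq table for GRCm38.p6, which holds 250 bases before and 50 after each start. The letters TGACGTCA, the palindromic core that CREB and ATF proteins are known to bind and that reads alike on both strands, occurred in 588 of 32851 promoters (1.79%). Of the 28 members of the list 25 were found there, with 34 promoters. Clk1 was not among them, so 8 of the 9 called members were read. The letters stood in 2 of the 34 promoters, both of called genes. They are shown with the motif in capitals, Tra2a at chr6:49264003-49264302 on the minus strand and Clk4 at chr11:51262864-51263163 on the plus strand, each 5′ to 3′ along its gene. The motif began 27 bases before the start in Tra2a and 65 bases before it in Clk4.
Tra2a: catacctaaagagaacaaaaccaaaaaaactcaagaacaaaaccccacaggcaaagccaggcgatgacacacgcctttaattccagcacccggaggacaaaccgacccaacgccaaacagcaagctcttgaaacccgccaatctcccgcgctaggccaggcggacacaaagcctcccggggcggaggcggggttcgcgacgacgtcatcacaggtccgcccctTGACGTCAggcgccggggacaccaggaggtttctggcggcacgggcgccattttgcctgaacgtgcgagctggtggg
Clk4: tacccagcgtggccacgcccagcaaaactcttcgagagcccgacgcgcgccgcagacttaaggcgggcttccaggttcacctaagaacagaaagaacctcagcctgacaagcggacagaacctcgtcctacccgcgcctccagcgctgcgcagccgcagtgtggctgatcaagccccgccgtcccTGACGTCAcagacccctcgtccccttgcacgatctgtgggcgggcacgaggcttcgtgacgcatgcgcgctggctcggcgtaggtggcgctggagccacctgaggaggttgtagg
The matches describe the letters in these windows and do not show a bound site. The share among called genes with ND and SW alike was 2.37% of 211 promoters for genes higher in HFD and 3.70% of 135 promoters for genes lower in HFD, against 3.12% of the 12002 promoters of tested genes.

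**Figure D4:**
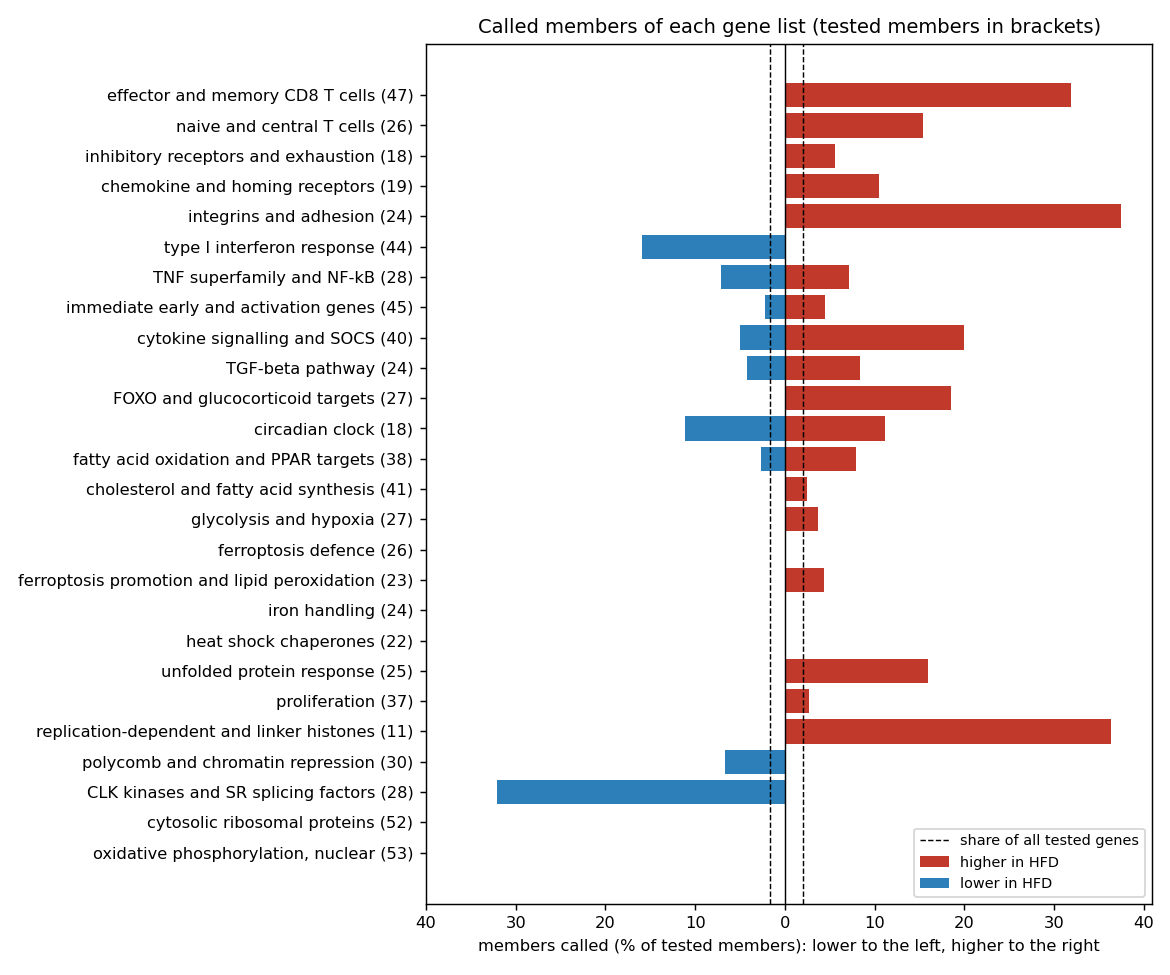
Share of the tested members of each gene list that were called, with genes higher in HFD to the right and genes lower in HFD to the left of 0. The number of tested members is in brackets and dashed lines mark the shares over all tested genes, 2.08% higher and 1.64% lower. The effector and adhesion lists reach farthest to the right among lists of over 20 members, and the CLK and SR list farthest to the left.

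Interferon response genes were the next group with calls in 1 direction. Of 44 tested members 7 were called lower in HFD and 0 higher, and for 2 of the 7 ND and SW were alike. The list's median difference was -0.10 for HFD and also -0.10 for SW minus ND. Stat2, a subunit of the interferon-activated factor ISGF3, had 58.9, 64.1 and 73.2 CPM in HFD, 69.3, 72.7 and 80.1 CPM in SW and 70.2, 75.0 and 79.3 CPM in ND. The HFD range reached above the lowest libraries of both other diets, and Stat2 fell by 0.18 (SE 0.046, adjusted p = 0.0206). It was not called without HFD 2 (adjusted p = 0.0534) or HFD 3 (adjusted p = 0.062). Xaf1, a proapoptotic interferon target, fell by 0.22 (SE 0.056) and was not called without HFD 2 or HFD 6. Irf9, the DNA-binding subunit of ISGF3, had medians of 126 CPM in HFD, 139.7 CPM in SW and 154 CPM in ND. Irf1, Irf7 and Rtp4 had the same order of medians, and Ifi213 was lowest in HFD and highest in SW. The list's count was 4 without HFD 2 or HFD 3.

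The core of the interferon-stimulated response element, TTTCNNTTTC or its reverse complement GAAANNGAAA, occurred in 3.44% of the 32851 promoters and in 17 of 41 promoters (41.5%) of 33 tested list members. The called members have 8 promoters there, and 2 of the 8 held it. The Stat2 promoter is shown because Stat2 is the ISGF3 subunit that was called with ND and SW alike. It lies at chr10:128270248-128270547 on the plus strand, with its match in capitals 222 bases before the start.
Stat2: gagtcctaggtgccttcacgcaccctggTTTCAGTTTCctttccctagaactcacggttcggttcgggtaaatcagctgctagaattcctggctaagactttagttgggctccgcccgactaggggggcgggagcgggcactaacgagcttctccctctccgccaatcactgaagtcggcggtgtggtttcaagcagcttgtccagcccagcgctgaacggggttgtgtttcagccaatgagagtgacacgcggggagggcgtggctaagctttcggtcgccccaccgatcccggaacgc

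Clock genes were called in both directions. Of 18 tested members 2 were called higher, Bhlhe40 and Per1, and 2 lower, among them Per2, and 3 of these 4 had ND and SW alike. Per2, a repressor of the clock, had 7.55, 9.09 and 12.3 CPM in HFD, 11.0, 12.6 and 15.04 CPM in SW and 11.1, 12.3 and 13.8 CPM in ND. The highest HFD library, HFD 4, lay inside the ranges of both other diets. Per2 fell by 0.41 (SE 0.10, adjusted p = 0.0155). Its paralogue Per1, which glucocorticoids also induce, rose by 0.23 ± 0.065 (adjusted p = 0.0428) and kept its call in 4 of the 18 fits with a library left out. Arntl, which encodes the activator BMAL1, differed by -0.082 ± 0.073 and was not called. The hour at which cells were taken is not stated in the labels. The list's count was 2 without HFD 2 or HFD 4.

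Of 43 listed replication-dependent and linker histones 11 passed the filter on low counts, and 4 of these were called higher, 2 with ND and SW alike. The 4 are 36.4% of the 11, against 3.72% called among all tested genes. A histone gene whose level is near the filter can pass it through the group in which it is high, so the 4 of 11 is a description. Hist1h4n, a gene of histone H4, had 0.637, 1.40 and 2.58 CPM in HFD, 0.0828, 0.335 and 0.624 CPM in SW and 0.157, 0.313 and 0.768 CPM in ND. The highest ND library lay above the lowest HFD library, and the difference was 2.02 ± 0.35 (adjusted p = 0.000939). Histone genes of 1 family are near-identical copies, and the counting could split their reads. Most of their transcripts lack a poly-A tail, which the selection used here requires. The linker histones Hist1h1e and Hist1h1c had SW between HFD and ND. The count of called histones was 2 without HFD 2 or HFD 4. Of 30 polycomb and chromatin genes 2 were called lower (6.67%). Among them was Cbx8, a subunit of polycomb repressive complex 1, for which ND and SW were not shown alike. Cbx8 had medians of 13.4 CPM in HFD, 18.9 CPM in SW and 25.8 CPM in ND.

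Among the metabolic lists, that of fatty acid oxidation and PPAR targets had the most called genes. Of its 38 tested members 3 were called higher and 1 lower, a larger share than the 3.72% called among all tested genes. Cpt1a, the carnitine palmitoyltransferase that commits long-chain fatty acids to mitochondrial oxidation, had 79.3, 99.5 and 117 CPM in HFD, 48.1, 62.6 and 93.1 CPM in SW and 47.2, 57.0 and 100.2 CPM in ND. The ranges overlapped, the difference was 0.63 ± 0.17 (adjusted p = 0.0483), and the call held in 2 of the 18 fits with a library left out. Ucp2, an uncoupling protein of the mitochondrial inner membrane, rose by 0.16 ± 0.039 (adjusted p = 0.0148, and 0.0568 without HFD 4), but ND and SW were not shown to be alike. Cd36, a fatty acid transporter, had 16.4 CPM in HFD 1 and a median of 7.005 CPM in HFD, 5.70 CPM in SW and 4.37 CPM in ND. It was called (adjusted p = 0.0331) with all libraries and in 9 of the 18 fits with a library left out, where its difference ran from 0.38 to 0.73. The call was lost without HFD 1, HFD 3, HFD 5, SW 1, SW 2, SW 5, ND 2, ND 3 or ND 5, and without HFD 1 and HFD 4 together. Acsl3, which activates fatty acids, fell by 0.56 (SE 0.16, adjusted p = 0.0416). Without HFD 1 and HFD 4 together 0 of the 38 genes were called, and the count was 1 or 2 in 15 of the 18 fits with a library left out. Of 41 genes of cholesterol and fatty acid synthesis 1 was called (2.44%), the citrate lyase Acly (0.16 ± 0.04). Of 27 glycolysis and hypoxia genes 1 was called (3.70%), the pyruvate kinase Pkm (0.12 ± 0.034).

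Ferroptosis, the lipid peroxidation death that the study's title names, had 3 lists with 1 called gene in all. Of 26 tested defence genes 0 were called, of 23 genes that promote lipid peroxidation 1, Cd36, and of 24 iron handling genes 0. At an unadjusted p under 0.05 there were 4 defence genes, 5 promoting genes and 5 iron handling genes. DESeq2 called 0 defence genes, 1 promoting gene and 1 iron handling gene, and limma-voom called 0 in each. Gpx4, the peroxidase that reduces lipid hydroperoxides, had 87.9, 101 and 105 CPM in HFD, 89.9, 94.4 and 99.7 CPM in SW and 91.6, 97.9 and 109.8 CPM in ND. The ranges overlapped, and the difference was 0.021 ± 0.041 (adjusted p = 0.832). Acsl4, which loads polyunsaturated fatty acids into phospholipid, differed by -0.073 ± 0.051, the transferrin receptor Tfrc by -0.087 ± 0.054 and the ferritin chain Fth1 by 0.087 ± 0.039. None of these 4 genes was called when any 1 library was left out. Oxidative phosphorylation (53 nuclear genes), cytosolic ribosomal proteins (52), heat shock chaperones (22) and the mitochondrially encoded genes (12) had 0 called members by edgeR and limma-voom. At an unadjusted p under 0.05 these 4 lists had 9, 3, 2 and 4 members in that order, and DESeq2 called 3 genes of oxidative phosphorylation and 0 of the other 3 lists.

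Of 25 genes of the unfolded protein response and of folding in the endoplasmic reticulum 4 were called higher and 0 lower, 2 with ND and SW alike. Pdia3, a disulphide isomerase of glycoproteins, rose by 0.15 ± 0.038 (adjusted p = 0.0181) and the lectin chaperone Canx by 0.14 ± 0.04 (adjusted p = 0.0387). Calr, the soluble lectin chaperone, rose by 0.14 ± 0.039 and the stress sensor Atf6 by 0.41 ± 0.088 (adjusted p = 0.00703). For Calr and Atf6 ND and SW were not shown to be alike. The list's count was 1 without HFD 5 or HFD 6 and 2 without HFD 2, SW 4, SW 5, SW 6, ND 1, ND 2, ND 4 or ND 6.

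For 21 genes (0.153% of those tested) all 6 HFD libraries lay beyond all 12 others, 10 above (0.073%) and 11 below (0.0804%). Of these 20 were called, each with ND and SW alike, and Prkcd, a protein kinase C gene, was not. They were named for this pattern after their values were seen. Above stood Naip2, Rpn2, Ncald, Bhlhe40, Plcl2, Fam49b, Jdp2, Spef2 and Rnf13. Naip2 encodes a receptor that senses bacterial secretion system proteins. It had 9.57, 12.5 and 15.4 CPM in HFD, 6.24, 7.82 and 9.20 CPM in SW and 4.97, 7.45 and 9.56 CPM in ND. The lowest HFD and the highest ND library lay close together, and the difference was 0.74 ± 0.12. Naip2 has near-identical paralogues, and the counting could split their reads. Rpn2, a subunit of the oligosaccharyltransferase that glycosylates new proteins, had 197 to 219.6 CPM in HFD, 173 to 193 CPM in SW and 174 to 189 CPM in ND.

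Below stood Polr3f, Zfp707, Ddx55, Utp23, Zfp566, 2700081O15Rik, Fbxo22, Bdh1, Gm37116, Hs2st1 and Vps29. Polr3f, a subunit of RNA polymerase III, had 31.4, 34.3 and 35.3 CPM in HFD, 38.7, 40.5 and 44.5 CPM in SW and 40.9, 41.3 and 42.9 CPM in ND, and fell by 0.29 (SE 0.048, adjusted p = 0.00106). Ddx55, a helicase of ribosome assembly, had 39.7 to 45.8 CPM in HFD, 48.2 to 58.5 CPM in SW and 47.2 to 55.8 CPM in ND. Utp23, a factor of 18S ribosomal RNA processing in yeast, had 12.7 to 15.5 CPM in HFD, 16.4 to 18.6 CPM in SW and 16.0 to 22.2 CPM in ND. Bdh1, the dehydrogenase of ketone bodies, had 35.04 to 39.7 CPM in HFD, 40.2 to 47.2 CPM in SW and 42.1 to 46.5 CPM in ND. With 1 library left out the number of such genes ran from 22 without ND 5 to 63 without HFD 1. It was 55 without HFD 5, 41 without HFD 3, 35 without HFD 4, 42 without SW 2 and 41 without SW 6. Fewer libraries then have to be apart, and why the number differed with the library left out was not tested.

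The largest other differences with ND and SW alike were in genes of various functions. Above, Zdhhc2, a palmitoyltransferase, had 4.10, 5.18 and 7.67 CPM in HFD, 1.98, 2.89 and 4.52 CPM in SW and 2.07, 2.74 and 3.07 CPM in ND, a difference of 0.96 ± 0.16 (adjusted p = 0.000788). Ncald, a neuronal calcium sensor, rose by 0.95 ± 0.18 and Gatm, the first enzyme of creatine synthesis, by 0.98 ± 0.24. Gatm was not called without HFD 1 or HFD 3. Cemip2 and Lamc1, of hyaluronan turnover and laminin, rose by 0.93 ± 0.25 and 0.92 ± 0.27 at levels of 1 to 3 CPM in HFD. Cemip2 was called in 10 and Lamc1 in 6 of the 18 fits with a library left out, and Lamc1 was not called with no filter on low counts. Below, Gt(ROSA)26Sor, the noncoding RNA of the Rosa26 locus, had 11.6, 12.9 and 16.2 CPM in HFD, 14.8, 20.8 and 27.2 CPM in SW and 19.8, 22.4 and 28.5 CPM in ND. It fell by 0.72 (SE 0.11, adjusted p = 0.00111). Csrnp2, a nuclear factor, fell by 0.66 (SE 0.10, adjusted p = 0.000453) and Igip by 0.46 (SE 0.061, adjusted p = 0.000205). Igip had 21.2, 27.7 and 31.9 CPM in HFD, 29.3, 37.0 and 44.7 CPM in SW and 29.6, 38.4 and 42.7 CPM in ND. The largest fall, by 1.14, was that of Lcat, the cholesterol acyltransferase of plasma lipoproteins, which had at most 0.815 CPM in HFD. Its call held in 12 of the 18 fits with a library left out.

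Transcripts of other spleen cells were present and moved with the diet in part. Called shares were 20% (monocytes, macrophages and neutrophils), 14.3% (B cells), 15.4% (dendritic cells) and 50% (plasma cells), against 3.72% of all tested genes. Median HFD differences of these lists were 0.50, 0.16, 0.34 and 0.64 in that order, and 1.61 for the erythroid list. They were 0.064 for CD4 T, 0.18 for natural killer and 0.036 for gamma delta T cells and 0.10 for platelets. The summed level of the list for monocytes, macrophages and neutrophils was 62.6 to 75.1 CPM in HFD, 43.1 to 74.0 CPM in SW and 47.5 to 62.4 CPM in ND, and 3 of its 15 tested genes were called higher, Ngp, Itgam and Lyz2. Of these, Itgam stood near the filter on low counts. The B cell list summed to 1017 to 1397 CPM in HFD, 832 to 1060 CPM in SW and 701 to 1075 CPM in ND, with 1 of 7 genes called, Ighm. The dendritic cell list summed to 904 to 1685 CPM in HFD, 701 to 1061 CPM in SW and 626 to 1233 CPM in ND, with 2 of 13 called, Siglech and Itgax. Of the plasma cell list 2 of 4 were called, Prdm1 and Irf4, which T cells also express. The erythroid list summed to 36.4 to 373.9 CPM in HFD, 54.1 to 117.4 CPM in SW and 38.8 to 65.1 CPM in ND, with 0 of 8 called by edgeR, 4 by DESeq2 and 7 at an unadjusted p under 0.05, all higher in HFD. Of the CD4 T cell (10 tested), natural killer cell (8), gamma delta T cell (5) and platelet (3) lists 0 were called by edgeR or DESeq2, with 4, 1, 0 and 0 at an unadjusted p under 0.05, and limma-voom called 1 natural killer cell gene. Il17a and Gp6 were at 0 in all libraries. The part of other cells in the differences above was not tested beyond the covariates that follow.

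When the mean log2 level of the myeloid list was added to the fit, 2 genes were called, Timm9 and Igip, both lower in HFD with ND and SW alike. The fitted differences of the 509 genes had the same sign for all 509 and a median size of 0.23, against 0.24 without the covariate, and their SE were a median of 1.44 times as large. At an unadjusted p under 0.05 there were 417 of the 509. These genes were chosen by the HFD difference in the same libraries, so their signs and this count are a description. The covariate ran from 0.18 to 0.41 in HFD, from -0.42 to 0.41 in SW and from -0.58 to -0.038 in ND, so that 2 of the 12 SW and ND libraries lay above the lowest HFD library. Diet and myeloid level therefore cannot be told apart in these libraries beyond that. With the B cell list as the covariate 501 genes were called, 338 higher and 163 lower, of which 291 were among the 509. The effector list then had 9 called members against 15, and the cytokine list 5 against 10. With the erythroid list as the covariate 293 genes were called, 234 of them among the 509, with 9 members of the effector list, 2 of the cytokine list and 2 of the interferon list, against 7 of the interferon list without it.

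The HFD difference was also set side by side for the 2 sets of library numbers. For Clk1 the difference was -0.20 in replicates 1 and 2 and -0.41 in replicates 3 to 6, and for Itgb1 it was 0.48 and 0.42. The edgeR test of the difference between the sets called 0 genes, with 705 at an unadjusted p under 0.05, and 6 without HFD 2. With all libraries limma-voom also called 0, with 584 at an unadjusted p under 0.05. Bhlhe40 had 1.64 in replicates 1 and 2 and 0.64 in replicates 3 to 6, with an unadjusted p of 0.00684 and an adjusted p of 0.924.

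Single libraries carried much of the count. Without HFD 2 the number of called genes was 273 and without HFD 4 it was 335, while without HFD 1 it was 739, against 509 with all 18. The genes with ND and SW alike numbered 204 without HFD 2 and 536 without HFD 1, against 339. Of the 85 genes named by the rule that were called, 32 were called in each of the 18 fits with a library left out, 22 of them with ND and SW alike. They include Cd44, Prdm1, Bhlhe40, S100a6, Itgb1, Itgb2, Itgae, Plxnb2, Rhob, Tnfrsf1b, Zdhhc2, Ncald, Clk1, Tra2a, Tra2b, Socs4, Csrnp2, Igip and Gt(ROSA)26Sor. Among the genes just named, Prdm1, Bhlhe40, Itgb2, Rhob, Tnfrsf1b, Ncald and Tra2b were not called with replicates 3 to 6 only. Plxnb2, Tnfrsf1b and Socs4 were not called with the B cell covariate. In those 18 fits Pkm, Siglech and Il6ra were called in 3, Lyz2 in 4, Canx, Calr, Itgax and Irf4 in 5, Ets1 and Ngp in 6, Acsl3 in 7, Klf10 in 10 and Tgfbr2 in 12.

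**Figure D5:**
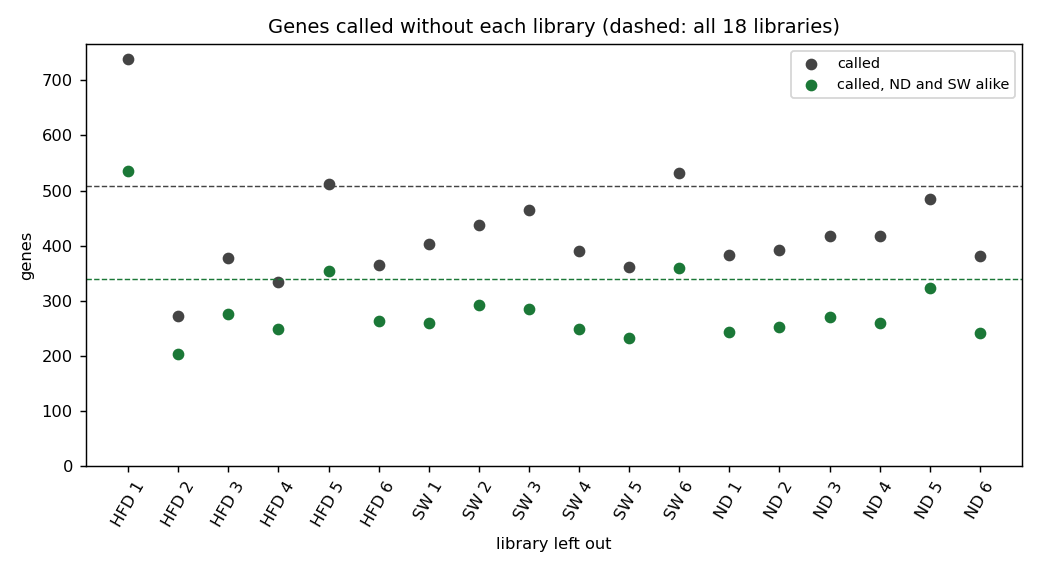
Number of genes called in the HFD contrast, and number called with ND and SW alike, in fits that each left out the library named on the horizontal axis. Dashed lines mark the counts with all 18 libraries, 509 and 339. The count is lowest without HFD 2, at 273, and highest without HFD 1, at 739.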

How the data were processed

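RNA-seq of splenic CD8 T cells covered 6 libraries for each of 3 diets. Per the submitters' processing notes, fastp was used on the reads and the builds were GRCm38 and mm10. The sources used here name no aligner, counting tool, annotation or strand setting. The authors deposited unnormalized gene counts, 1 file a library, for 56748 IDs. Symbols and coordinates come from GENCODE M21 (GRCm38), which held 52125 of the IDs. Deposited FPKM files were not used.

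All 18 libraries entered 1 edgeR 4.0.16 quasi-likelihood fit (R 4.3.3) with TMM factors, the filterByExpr filter, a robust fit, and diet and number set as factors. The number set follows the library numbers, 3 and 4 against 5, 8, 9 and 10. Of the 13690 genes kept, 230 had no symbol. Levels are TMM-scaled CPM, and differences are given with the SE of the fit. Intervals are at 95%. No pair of libraries agreed within sampling noise, the smallest mean chi-square of 153 pairs being 5.19. The steps were tested on simulated data. The members and lists were chosen with earlier results of these data known.

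Genes were named by a rule. It took the 12 largest differences in each direction among called genes with ND and SW alike and at least 1 CPM, leaving out unnamed models and receptor segments. It added up to 4 called members of each of 37 lists by smallest p, the 6 called genes with the smallest p of SW minus ND among those not alike, and Cd8a, Cd8b1, Cd44, Gzmb, Tnf, Id3, Gpx4, Acsl4, Tfrc, Fth1, Cpt1a, Cd36 and Il7r. Other genes named were chosen after their values were seen, and some genes are not reported here. Alternatives were DESeq2 1.42.0, limma-voom (limma 3.58.1), other scalings, filters and designs, marker levels as covariates and leaving out libraries. The myeloid and B cell covariates, the tests of lists by other tools and those of the number sets and of genes without overlap were added after the data were seen.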

Additional observations from a re-analysis of the deposited data

Results flagged for a closer look

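A library was marked where its log2 CPM lay far from the other 5 of its diet, with a gap to the next one that was larger than Dixon's critical share of the group's range. Of 276 groups of named genes 13 were marked, and chance marks about 1 in 20. HFD 1 gave 5 of the 13. It was low for Zfp36l2 at 9.27, Tsc22d3 at 8.42, Txnip at 9.36 and Ngp at 0.036, and high for Cd36 at 4.05. Replicate 1 of the other diets was low for some of the same genes, Zfp36l2 at 9.89 in SW 1 and 9.50 in ND 1, Tsc22d3 at 8.14 in ND 1 and Txnip at 9.45 in ND 1. Bhlhe40 stood high in HFD 2 at 3.72. In ND 3, Cx3cr1 was high at 3.36, and in ND 2, Prr33 was low at 3.44 and Igip at 4.89.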

How the results depend on the processing

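The 509 called genes and the 339 with ND and SW alike became 780 and 454 with DESeq2, 791 and 470 with no filter on low counts, 184 and 130 without the number set, 187 and 136 with replicates 3 to 6 only, 5 and 4 with replicates 1 and 2 only, 293 and 212 with the erythroid covariate, 2 and 2 with the myeloid covariate, and 132 and 105 at an adjusted p under 0.01. Fits that left out 1 library gave 273 to 739 and 204 to 536. Fits with fewer libraries have less power by construction, though without HFD 1 the count was 739. The cause of these changes was not tested for any setting. limma-voom, other scalings, a 5 CPM filter, the B cell covariate and leaving out HFD 1 and HFD 4 together (562 and 443) stayed within 1.5 times of both counts, though with the B cell covariate 291 of the 501 genes were among the 509. The genes without overlap numbered 32 with library size alone, 107 without HFD 1 and HFD 4 together and 22 to 63 without 1 library, against 21. The difference between the number sets called 8 genes without HFD 1 and HFD 4 together and 0 to 6 without 1 library. Signs turned for Gpx4 with library size alone (-0.0033), and with replicates 1 and 2 only for Gpx4 (-0.081) and Cd8b1 (-0.029), none of them called. With the replicate block in place of the number set 533 and 363 genes were called. Same-numbered libraries correlated at -0.031 to 0.22 in their deviations from the diet means, with 7 of 18 pairs above 0.1 and 8 of 18 correlating best with their own number. Within replicates 3 to 6 they correlated at -0.042 to 0.063, with 0 of 12 above 0.1 and 3 of 12 best with their own. As not every pair was above 0.1, the numbers were not taken as pairing the samples. Among single genes, 830 of 3171 comparisons with an alternative lost the call and 13 gained one. Levels near 1 CPM limit Hist1h4n, Lcat, Lamc1 and Itgam most.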
